A study of Mus musculus with 10 samples.

Results

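The genes described here are 7 that handle zinc: the metallothioneins Mt1 and Mt2, the zinc-sensing transcription factor gene Mtf1, the exporter gene Slc30a1 and the importer genes Slc39a1, Slc39a10 and Slc39a14. They were taken by symbol, with earlier results of these data known, and all 7 were found among the 18223 genes of the deposited table. The tissue was subcutaneous tumour grown from MC38, a mouse colon adenocarcinoma line that forms tumours in immunocompetent mice. The 5 libraries of high tumour burden (HTB) carry a treatment number of 2000000 and the 5 of low tumour burden (LTB) one of 500000, both with a period of 14 days, read here as MC38 cells given and days of growth. No label gives the mouse strain, age, sex or a measured tumour size, or says that each library came from a separate animal, so the p-values measure the spread between these libraries. No genetic change is labelled in either group.

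Cells keep free zinc very low. Metallothioneins are small cysteine-rich proteins that bind zinc and copper, MTF-1 is the transcription factor that senses zinc and switches on Mt1, Mt2 and Slc30a1, ZnT proteins (the Slc30 family) move zinc out of the cytosol, and ZIP proteins (the Slc39 family) move it in. Metallothionein genes also respond to glucocorticoids, oxidative stress and interleukin-6 signalling, and are used by tumour cells and macrophages alike.

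The tissue was whole tumour, so fewer cells of a type and less RNA per cell cannot be told apart. Library totals ran from 23070903 to 27185152 estimated reads. HTB replicate 2 stood apart, with summed skeletal muscle markers (6 genes) at 11407 CPM where the other 9 libraries had 4.18 to 45.8 CPM, and summed adipocyte markers (6 genes) at 5274 CPM, where the others had 0.0389 to 21.7 CPM. CPM are counts scaled to the same library total in every library, after TMM normalisation. Of the epithelial markers, Krt8, Krt18, Krt19 and Cldn7 stood at or near 0, the highest value of any of them in any library being 0.207 CPM for Krt18 in HTB replicate 2. Epcam spanned 0.166 to 1.82 CPM and Cdh1 2.07 to 15.3 CPM over the 10 libraries. Summed macrophage markers (6 genes) spanned 435 to 728 CPM across the HTB libraries, while LTB spanned 804 to 1708 CPM, with no overlap. Of these 6 markers, 3 (Cd68, Lyz2 and Itgam) were lower in HTB (adjusted p under 0.05 by edgeR). Over all tested genes 7.51% were called lower, and in 11.7% the CPM of the 2 groups did not overlap. Adgre1 (log2 difference, HTB minus LTB, -0.66), Csf1r (-0.30) and Mrc1 (-0.084) did not pass. Lyz2 was the largest part of the sum, with means of 310 CPM in HTB and 689 CPM in LTB. LTB replicate 1 held the highest sum. T cell markers (5 genes in the table) summed to between 9.31 and 28.9 CPM in HTB, while LTB lay between 25.9 and 135 CPM.

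Mt1 and Mt2 lie side by side on chromosome 8. In GRCm38 the deposited table places Mt2 (NCBI gene 17750) at chr8:94172618-94173567 and Mt1 (17748) at chr8:94179084-94184982, both on the plus strand. Their coding sequences are shown because reads of such a similar pair could be divided between them, and because they show the cysteines that bind the metal. Capitals mark the codons TGT and TGC, which encode cysteine, read in frame from the start codon of the principal GENCODE transcript of each gene (GRCm38, plus strand, 5′ to 3′).
Mt1: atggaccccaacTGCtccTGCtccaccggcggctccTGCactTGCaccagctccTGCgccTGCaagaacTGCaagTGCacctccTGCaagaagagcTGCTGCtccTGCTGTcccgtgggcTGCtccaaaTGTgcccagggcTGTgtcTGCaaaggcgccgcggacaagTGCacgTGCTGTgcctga
Mt2: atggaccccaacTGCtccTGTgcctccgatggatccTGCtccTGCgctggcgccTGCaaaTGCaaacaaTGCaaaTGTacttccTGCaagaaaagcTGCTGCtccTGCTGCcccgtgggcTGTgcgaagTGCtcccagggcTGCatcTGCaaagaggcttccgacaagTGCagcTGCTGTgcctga
Each runs to 186 bases with its stop codon and holds 20 cysteine codons among 61 codons, all 20 at the same positions in both. Of the 186 bases 148 were identical (79.6%), and the longest run shared by the whole transcripts was 20 bases. The deposited counts of Mt1 and Mt2 were whole numbers in all 10 libraries. How reads were assigned to one or the other is not stated in any source used, and the split between the pair is uncertain.

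MTF-1 binds metal response elements, whose core is searched here as TGCACNC or TGCGCNC on both strands. The letters of the pair differ at the fourth base, so no site matches both on one strand, while matches on opposite strands may overlap. The windows hold the 250 bases before the RefSeq start (GRCm38.p6), and 6 of the 7 genes matched an entry of that set. Mt1, Mt2 and Slc30a1, the classic MTF-1 targets among the 7, were the 3 with a match, shown in capitals. The windows are chr8:94178839-94179088 for Mt1, chr8:94172368-94172617 for Mt2 and chr1:191906531-191906780 for Slc30a1, all on the plus strand and 5′ to 3′.
Mt1: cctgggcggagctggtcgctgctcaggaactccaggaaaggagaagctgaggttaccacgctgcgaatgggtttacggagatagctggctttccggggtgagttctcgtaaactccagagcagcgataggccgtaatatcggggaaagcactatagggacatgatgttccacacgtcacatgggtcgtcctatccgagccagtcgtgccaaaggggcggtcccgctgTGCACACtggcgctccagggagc
Mt2: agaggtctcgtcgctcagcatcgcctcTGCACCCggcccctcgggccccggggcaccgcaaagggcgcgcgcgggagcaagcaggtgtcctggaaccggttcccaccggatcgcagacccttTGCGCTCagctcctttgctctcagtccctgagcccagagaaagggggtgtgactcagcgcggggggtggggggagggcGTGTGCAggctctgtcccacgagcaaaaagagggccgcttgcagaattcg
Slc30a1: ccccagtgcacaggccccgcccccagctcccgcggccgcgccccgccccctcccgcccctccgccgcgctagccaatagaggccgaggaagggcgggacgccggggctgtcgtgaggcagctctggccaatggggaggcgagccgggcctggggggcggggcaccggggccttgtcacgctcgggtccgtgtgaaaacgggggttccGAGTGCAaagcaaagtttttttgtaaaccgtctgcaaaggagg
Within these 250 bases Mt2 had 3 matches, Mt1 had 1 and Slc30a1 had 1. Matches after the annotated start are not counted, so these are not counts for whole promoters. Among 32851 windows of the same length, 10.4% held TGCACNC, 12.5% held TGCGCNC, 21.4% held either and 1.26% held at least 3 matches. These matches describe letters and not binding, and the start annotated for a gene need not be the one used in these tumours.

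None of the 7 genes passed the test between high and low burden. Over all genes, 11.4% of 13469 passed (edgeR quasi-likelihood test, Benjamini-Hochberg adjusted p under 0.05), 7.51% lower and 3.91% higher in HTB. The count for the 7 was 0 with edgeR, with DESeq2, with limma voom and by q in the authors' deposited table. At an unadjusted p under 0.05 edgeR gave 2 of 7 (Mt2 and Slc30a1), where 29.1% of all genes lay under that value. DESeq2 also gave 2 and limma voom 1. The median log2 difference of the 7, HTB minus LTB, was -0.25 against 0.016 over all genes, and 4 of the 7 were negative and 3 positive. In no member did the CPM ranges of the groups separate, which happened in 11.7% of all genes. In simulated counts of this comparison, 48% of genes changed 1.5-fold and 74% of those changed 2-fold were recovered, so a difference of either size could be missed. Recovery was not tested for the 7 genes separately. Mt1 and Mt2 varied more within groups (SD of log2 CPM 0.49 and 0.43) than the median gene (0.17).

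**Figure D1:**
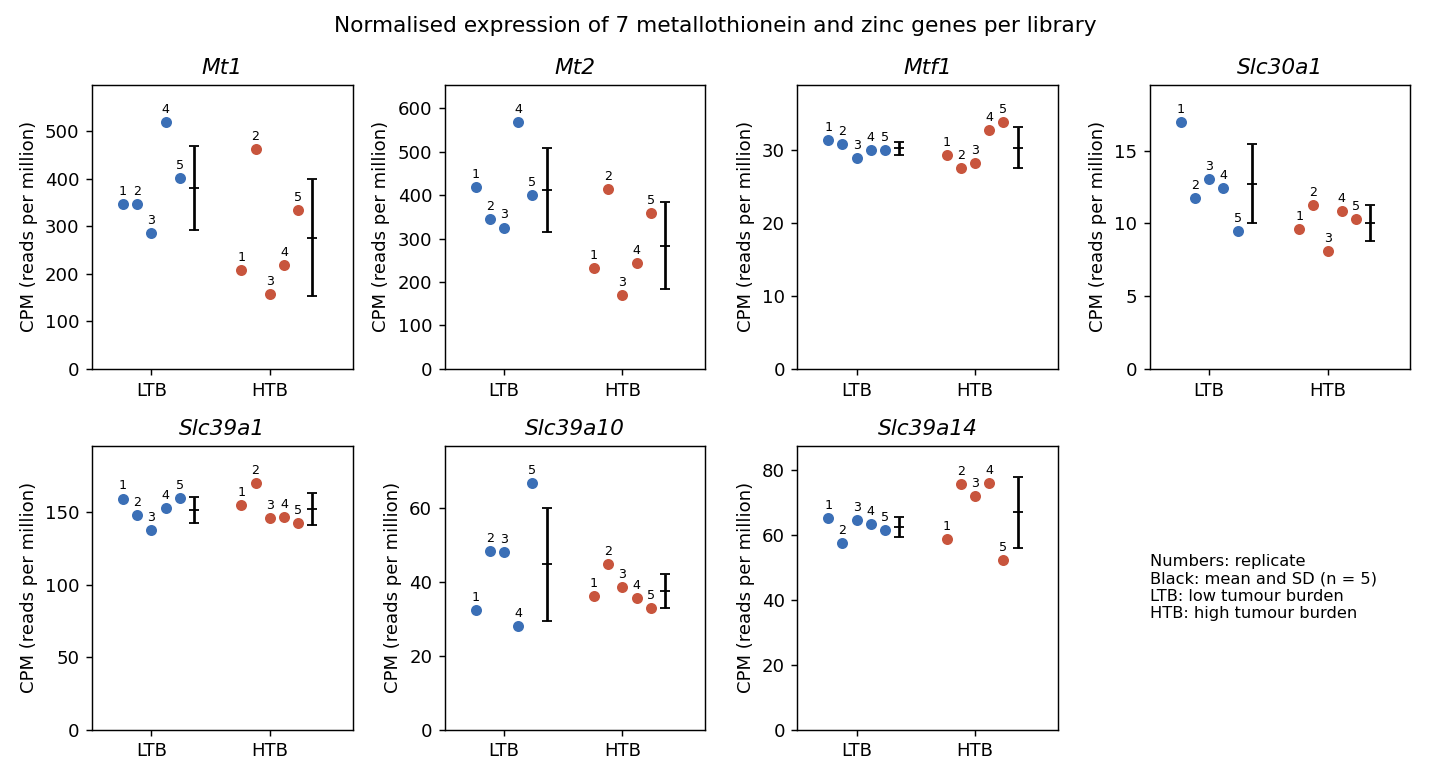
CPM (vertical axis, starting at 0) of the 7 genes in each library, LTB in blue and HTB in red, with replicate numbers and the mean and SD of each group in black (n = 5). The HTB libraries 1, 3 and 4 lie below every LTB library in Mt1 and Mt2, while HTB replicate 2 lies near the top of the LTB range in Mt1 at 463 CPM.

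The metallothioneins were the most abundant of the 7. Per kilobase of transcript, Mt2 stood at 680 ± 224 CPM per kb and Mt1 at 597 ± 209 CPM per kb (SD over all 10 libraries), and their ranges overlapped. Next came Slc39a1 at 64.3 ± 4.05, Slc39a14 at 13.2 ± 1.60 and Slc39a10 at 7.49 ± 2.06 CPM per kb, followed by Mtf1 at 3.96 ± 0.256 and Slc30a1 at 2.17 ± 0.466 CPM per kb. The ranges of Slc39a14 (10.6 to 15.5) and Slc39a10 (5.09 to 12.2) overlapped, and those of the other neighbours in this order, Mt1 and Mt2 aside, did not. The authors' deposited table, whose mean expression has no stated unit, put Mt2 at 625 and 912 and Mt1 at 622 and 867 in HTB and LTB.

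**Figure D2:**
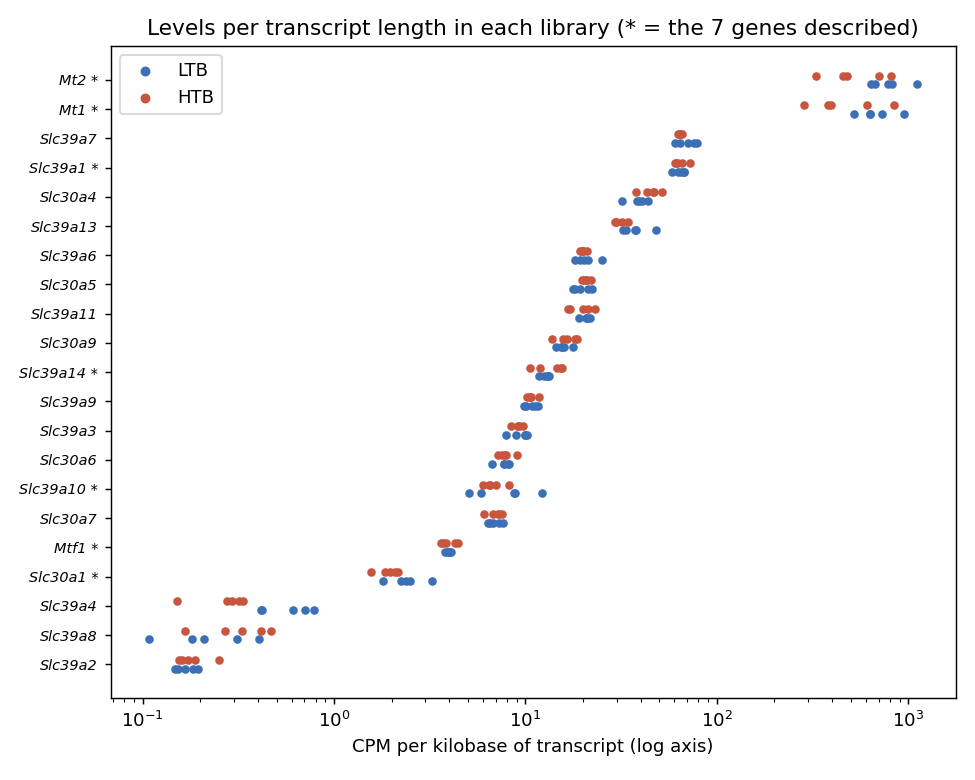
CPM per kilobase of transcript (horizontal log axis) in each library for Mtf1 and the tested metallothionein, ZnT and ZIP genes, LTB in blue and HTB in red, an asterisk marking the 7 genes described. Mt1 and Mt2 sit far to the right of every transporter gene, and Slc30a1 is the lowest of the 7 at 1.55 to 3.23 CPM per kb.

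Mt1, which encodes metallothionein-1, stood at 208, 463, 157, 218 and 334 CPM in HTB replicates 1 to 5 and at 346, 347, 286, 519 and 401 CPM in LTB replicates 1 to 5. HTB replicates 1, 3 and 4 were lower than every LTB library, and HTB replicates 5 and 2 lay within the LTB range. The means were 276 ± 123 CPM in HTB and 380 ± 87.7 CPM in LTB (SD, n = 5 each), a log2 difference of -0.46 ± 0.27 (SE; adjusted p = 0.29 by edgeR). Its 95% interval, -1.07 to 0.15, holds both no difference and a level in HTB 0.477 times that in LTB.

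Mt2, its neighbour, stood at 232, 415, 169, 243 and 359 CPM in HTB replicates 1 to 5 and at 419, 344, 325, 568 and 401 CPM in LTB replicates 1 to 5. The same HTB replicates, 1, 3 and 4, lay under the whole LTB range, LTB replicate 4 was highest and HTB replicate 3 lowest for both genes. The means were 284 ± 100 CPM in HTB and 412 ± 95.8 CPM in LTB (SD, n = 5 each), and the log2 difference of -0.54 ± 0.24 (SE; 95% interval -1.06 to -0.0093) had adjusted p = 0.165 and unadjusted p = 0.0467 by edgeR.

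The CPM of Mt2 divided by that of Mt1 was 1.06 ± 0.0912 in HTB and 1.09 ± 0.0933 in LTB (SD, n = 5 each). It ran from 0.897 in HTB replicate 2, which with LTB replicate 2 (0.991) was below 1, to 1.21 in LTB replicate 1. Over the same 10 libraries Mt1 itself ranged from 157 to 519 CPM.

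**Figure D3:**
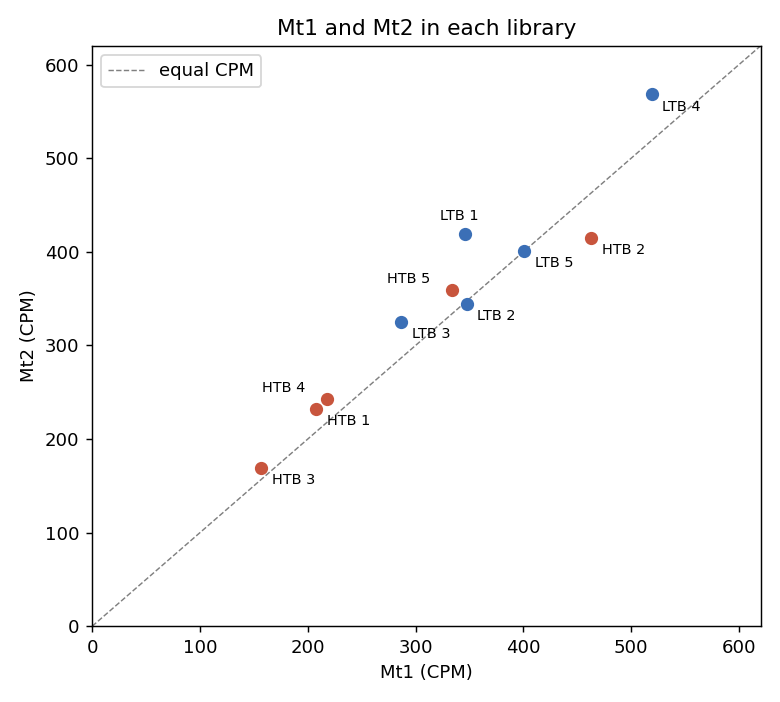
Mt1 (horizontal) against Mt2 (vertical) in CPM, one point per library, LTB in blue and HTB in red, with a dashed line of equal CPM. The points follow the line from HTB replicate 3 (157 and 169 CPM) to LTB replicate 4 (519 and 568 CPM), and HTB replicate 2 lies below it.

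The calls for both metallothioneins turned on HTB replicate 2, the library rich in muscle and fat transcripts. Without it Mt1 was lower in HTB by a log2 difference of -0.73 ± 0.22 (SE; adjusted p = 0.0386 by edgeR) and Mt2 by -0.71 ± 0.22 (adjusted p = 0.0397). Both then passed, so 2 of 7 genes were called in that fit, both lower in HTB. In it 22.4% of 13551 genes were called, 12.7% lower and 9.77% higher. Without both HTB replicate 2 and LTB replicate 1, Mt1 passed (-0.76, adjusted p = 0.0397) and Mt2 missed the threshold (-0.71, adjusted p = 0.0508). In that fit 21.6% of 13448 genes were called, 12.4% lower and 9.26% higher. Leaving out any other single library gave Mt1 a log2 difference between -0.55 and -0.31 and Mt2 one between -0.64 and -0.39, with neither passing. Within HTB, replicate 2 had the highest Mt1 and Mt2. The part of muscle, fat or macrophage RNA in these levels was not tested.

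**Figure D4:**
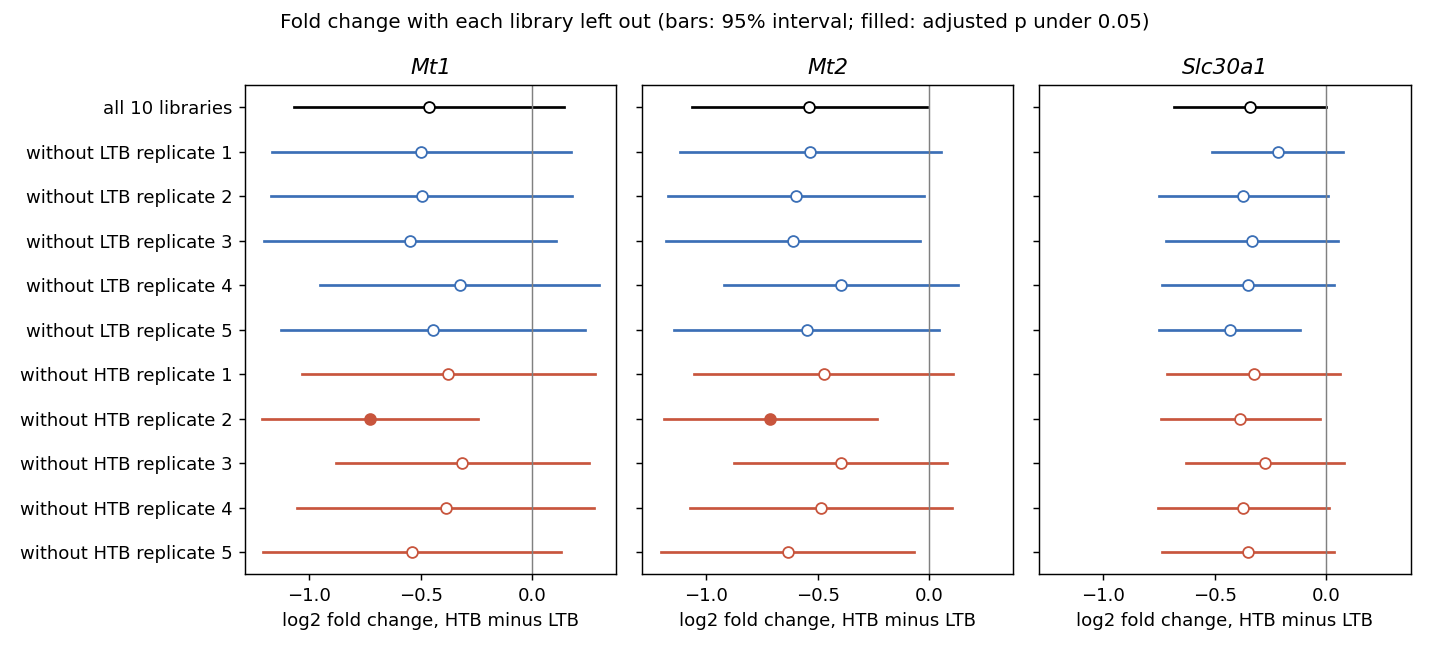
Log2 difference (HTB minus LTB, horizontal) of Mt1, Mt2 and Slc30a1 with all 10 libraries and with each library left out, bars giving the 95% interval and filled points an adjusted p under 0.05. Filled points appear only for Mt1 and Mt2 without HTB replicate 2, at -0.73 and -0.71.

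Mtf1 (NCBI gene 17764; chr4:124801904-124849800, plus strand), the zinc sensor itself, had almost the same mean in both groups, 30.3 ± 2.78 CPM in HTB and 30.1 ± 0.909 CPM in LTB (SD, n = 5 each). It stood at 29.3, 27.5, 28.2, 32.6 and 33.8 CPM in HTB replicates 1 to 5 and at 31.2, 30.7, 28.8, 30.0 and 29.9 CPM in LTB replicates 1 to 5, all LTB values lying inside the HTB range. The log2 difference was 0.0061 ± 0.072 (SE; 95% interval -0.15 to 0.16; adjusted p = 0.965 by edgeR). The interval spans levels in HTB from 0.90 to 1.12 times those in LTB. Mtf1 was the only one of the 7 with fractional deposited counts, in all 10 libraries.

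Slc30a1 (22782; chr1:191906689-191913247, plus strand) encodes ZnT1, the plasma membrane exporter that carries zinc out of the cell. It stood at 9.62, 11.3, 8.13, 10.9 and 10.3 CPM in HTB replicates 1 to 5 and at 17.0, 11.7, 13.0, 12.4 and 9.48 CPM in LTB replicates 1 to 5. All but LTB replicate 5 among the LTB libraries lay above every HTB library, and LTB replicate 1 stood highest. The means were 10.0 ± 1.24 CPM in HTB and 12.7 ± 2.73 CPM in LTB (SD, n = 5 each), with a log2 difference of -0.34 ± 0.15 (SE; 95% interval -0.68 to -0.00031; adjusted p = 0.172, unadjusted p = 0.0498 by edgeR). Without LTB replicate 1, the library with the highest macrophage, T cell and neutrophil marker sums, the difference was -0.22 (adjusted p = 0.335). The part of RNA from any of these cells in it was not tested.

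Slc39a1 (30791; chr3:90248192-90253613, plus strand) encodes ZIP1, a widely expressed zinc importer, and it varied little. It stood at 155, 170, 146, 147 and 143 CPM in HTB replicates 1 to 5 and at 159, 148, 138, 153 and 160 CPM in LTB replicates 1 to 5. The groups interleaved, and the log2 difference was 0.0062 ± 0.066 (SE; 95% interval -0.14 to 0.15; adjusted p = 0.961 by edgeR).

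Slc39a14 (213053; chr14:70303467-70351424, minus strand) encodes ZIP14, which imports iron and manganese as well as zinc and is induced by interleukin-6 in liver. It stood at 58.8, 75.9, 72.2, 76.2 and 52.3 CPM in HTB replicates 1 to 5 and at 65.2, 57.7, 64.7, 63.5 and 61.7 CPM in LTB replicates 1 to 5. HTB held both the 3 highest values and the lowest, with the LTB libraries close together between them. The log2 difference was 0.10 ± 0.11 (SE; 95% interval -0.13 to 0.33; adjusted p = 0.558 by edgeR). With 1 library left out it ran from 0.051 (without HTB replicate 4) to 0.18 (without HTB replicate 5), never passing.

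Slc39a10 (227059; chr1:46807544-46925773, minus strand) encodes ZIP10, a plasma membrane importer whose gene MTF-1 is known to repress. It stood at 36.1, 44.9, 38.7, 35.6 and 32.8 CPM in HTB replicates 1 to 5 and at 32.4, 48.3, 48.1, 28.0 and 66.8 CPM in LTB replicates 1 to 5. The LTB libraries spread on both sides of all HTB libraries. LTB replicate 4, with the highest Mt1 and Mt2, had the lowest Slc39a10, but LTB replicate 5 had the highest Slc39a10 with Mt1 and Mt2 both at 401 CPM. The log2 difference was -0.25 ± 0.21 (SE; 95% interval -0.71 to 0.21; adjusted p = 0.453 by edgeR). It leaned on LTB replicate 5, without which it was -0.061 (adjusted p = 0.847), while without LTB replicate 4 it was -0.38 (adjusted p = 0.212).

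The 7 genes differed widely in how much replicates of a group varied. The within-group SD of log2 CPM was 0.49 for Mt1, 0.43 for Mt2 and 0.37 for Slc39a10, and 90.3%, 87.9% and 85.2% of 12104 genes with an average log2 CPM of at least 1 had an SD no larger. It was 0.25 for Slc30a1 and 0.18 for Slc39a14, near or above the median gene at 0.17. Mtf1 at 0.097 and Slc39a1 at 0.095 were among the steadier genes, with 14.2% and 13.1% of genes at or below them.

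Pattern likeness was measured as the root mean square difference between log2 CPM values centred on each gene's own mean, over the 10 libraries, among 11782 other genes. It is a description, and genes that vary little lie close to many others. Mt1 and Mt2 were nearer to each other (0.12) than to any other gene. Closest to both after that was Pcdhgc4, at 0.22 from Mt1 and 0.21 from Mt2, itself at 1.98 to 4.27 CPM. It is one of the clustered gamma protocadherins, whose transcripts share exons, so its own count is uncertain. Pgm2 (0.26) and Ddt (0.27) came next for Mt1, and Adgrg1 (0.25) and Ldha (0.26) for Mt2. Ldha, the lactate dehydrogenase A gene, spanned 603 to 1008 CPM in the HTB libraries and 1177 to 1790 CPM in the LTB libraries.

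Slc30a1 was closest to Rnaset2a (0.10), Creg1 (0.11) and Mafk (0.11). All 3 had their highest value in LTB replicate 1, as Slc30a1 did, at 118, 83.9 and 46.7 CPM. Slc39a10 was closest to E2f7 (0.12), Pdp2 (0.17) and Erg28 (0.18), and E2f7 peaked in the same library, LTB replicate 5, at 54.8 CPM. Slc39a14 was closest to Hmga1 (0.071), Cpox (0.075) and Ndc1 (0.083), Mtf1 to Prr14 (0.045), Prmt6 (0.048) and Cep57 (0.049), and Slc39a1 to BC004004 (0.025), Mrpl48 (0.040) and Blcap (0.042).

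The remaining family members were counted from lists of the whole families. Mt3, a metallothionein best known from brain, and Mt4, from stratified epithelium, lie upstream of Mt2 on chromosome 8 and were too low to test. Mt3 had 74 reads (3.07 CPM) in HTB replicate 2, the library rich in muscle and fat transcripts, and 0 to 14 reads in every other library. Mt4 had 2 reads over the HTB libraries and 1 over the LTB libraries. Of these 4 neighbouring genes, Mt1 and Mt2 were the 2 that could be tested.

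Of the other ZnT exporter genes, 5 of 8 in the table were tested and 0 passed (edgeR, and 0 by DESeq2 and limma voom). Over all tested genes 11.4% passed by edgeR, so 0 of 5 does not set these genes apart. The number under an unadjusted p of 0.05 was 0 with edgeR and limma voom and 1 with DESeq2, where edgeR put 29.1% of all genes under that value. All 5 had positive log2 differences, with a median of 0.069 against 0.016 over all genes. The largest was Slc30a4, ZnT4, which loads zinc into vesicles, at 235, 207, 253, 256 and 281 CPM in HTB replicates 1 to 5 and 175, 210, 239, 215 and 221 CPM in LTB replicates 1 to 5. Its log2 difference was 0.22 ± 0.098 (SE; 95% interval -0.0015 to 0.43; adjusted p = 0.174), with overlapping groups. Slc30a5 stood at 0.074 (adjusted p = 0.523) and Slc30a9 at 0.069 (adjusted p = 0.638). Slc30a2, Slc30a3 and Slc30a10 had 5, 21 and 0 reads over all HTB libraries and 19, 30 and 1 over all LTB libraries, and were not tested.

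Of 11 other ZIP importer genes, 9 were tested, 1 fell and 0 rose, where 11.4% of all tested genes were called, so the share called was near that of all genes. The median log2 difference of the 9 was -0.056. The one that fell was Slc39a4, ZIP4, the importer of intestinal and other epithelial cells. It stood at 0.874, 0.415, 0.805, 0.761 and 0.916 CPM in HTB replicates 1 to 5 and at 2.16, 1.95, 1.67, 1.14 and 1.16 CPM in LTB replicates 1 to 5, so the groups did not overlap. Its log2 difference was -1.09 ± 0.28 (SE; adjusted p = 0.0312 by edgeR), a level in HTB 0.469 times that in LTB, from 102 reads over the HTB libraries and 202 over the LTB libraries. DESeq2, limma voom and the authors' deposited table (q = 0.0115) called it too. The call was lost in the fit with a replicate block (-1.08, adjusted p = 0.0926), when low counts were not filtered (-1.08, adjusted p = 0.0527) and without any one of HTB replicates 3, 4 or 5 or LTB replicates 1, 2 or 3 (-1.17 to -0.96, adjusted p = 0.0507 to 0.0738). It held without HTB replicate 2 (-0.94, adjusted p = 0.0229). Beside it, summed epithelial markers (6 genes) spanned 2.64 to 6.78 CPM in the HTB libraries and 6.23 to 16.1 CPM in the LTB libraries. Most of that sum was Cdh1 (E-cadherin), with means of 3.45 CPM in HTB and 8.90 CPM in LTB (log2 difference -1.36, adjusted p = 0.0332 by edgeR). Epcam was also lower in HTB, with 73 reads against 127 in LTB, but did not pass (-0.89, adjusted p = 0.295). The others were too low to test. Krt19 had 4 reads in HTB and 14 in LTB, Cldn7 had 4 and 4, Krt8 had 16 and 4 and Krt18 had 8 and 0. Keratinocyte markers (6 genes) spanned 4.42 to 12.4 CPM in the HTB libraries and 32.0 to 51.7 CPM in the LTB libraries. That difference was carried by Krt14, which spanned 0.797 to 9.76 CPM across HTB libraries and 28.5 to 49.3 CPM across LTB libraries. Krt10 had means of 3.11 and 3.12 CPM, and Krt5, at 6.89 CPM in LTB replicate 1, was at 0 in the other 9 libraries. Their part in the level of Slc39a4 was not tested.

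Slc39a13, the Golgi and vesicle importer ZIP13, stood at 84.3, 79.0, 73.4, 72.9 and 72.9 CPM in HTB replicates 1 to 5 and at 79.9, 93.1, 82.9, 92.5 and 119 CPM in LTB replicates 1 to 5. HTB replicate 1 overlapped the LTB range, and the log2 difference of -0.29 ± 0.10 (SE) had adjusted p = 0.0944 by edgeR. Without LTB replicate 5 it was -0.19 (adjusted p = 0.131). Slc39a7, the endoplasmic reticulum importer ZIP7, stood at -0.13 ± 0.074 (adjusted p = 0.264).

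**Figure D5:**
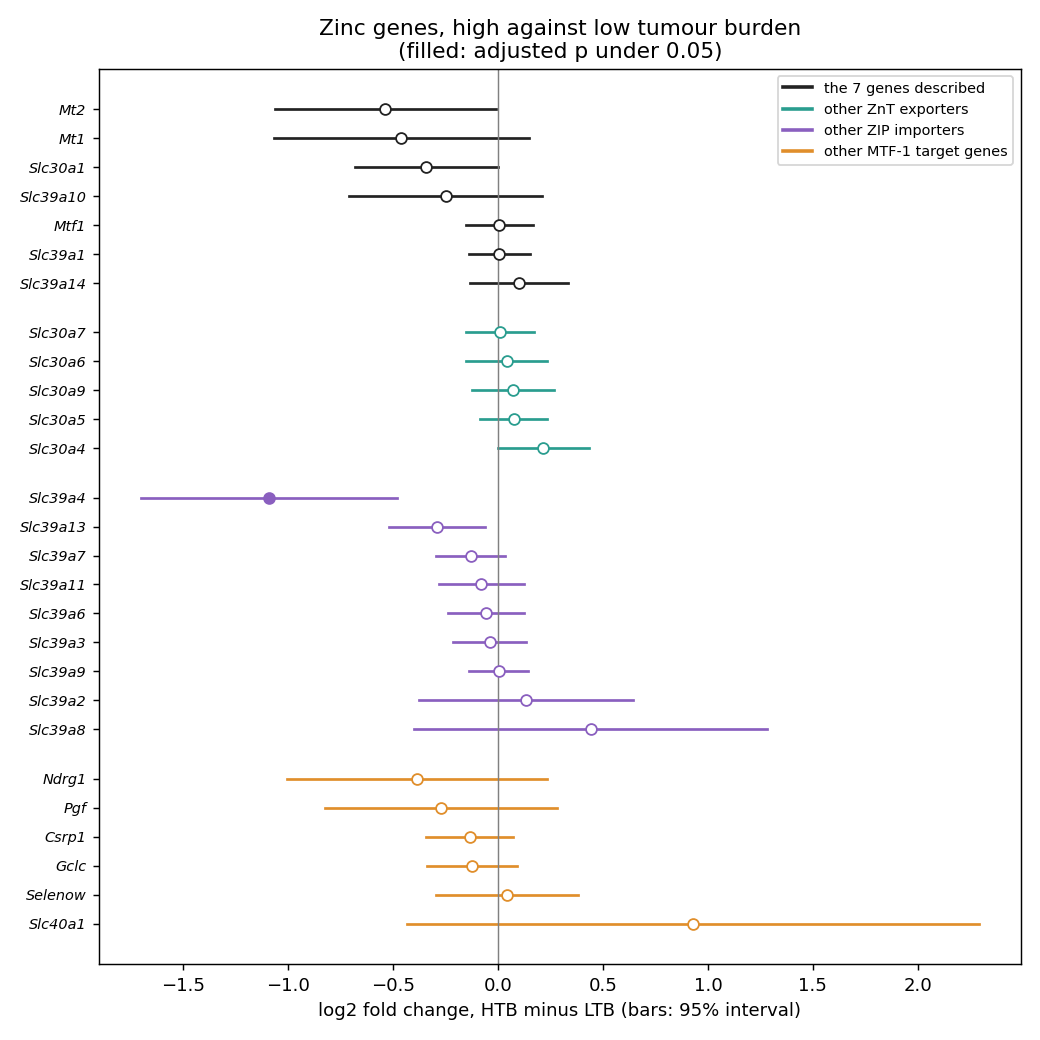
Log2 differences (HTB minus LTB, horizontal) with 95% intervals for the 7 genes, the other tested ZnT and ZIP genes and the other MTF-1 targets. The only filled point, for an adjusted p under 0.05, is Slc39a4 at -1.09, while the intervals of Mtf1 and Slc39a1 are narrow around 0.

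Of 6 further genes reported as MTF-1 targets (Gclc, Selenow, Csrp1, Ndrg1, Pgf and Slc40a1), all were tested and 0 passed with edgeR, DESeq2 or limma voom, also 0 at an unadjusted p under 0.05. Over all tested genes edgeR called 11.4%, and 29.1% lay under that unadjusted p. With 6 genes, a count of 0 does not show that these targets were unchanged. Their median log2 difference was -0.13 against 0.016 over all genes, 4 negative and 2 positive. Ndrg1, which hypoxia also induces, stood at 370, 155, 334, 447 and 472 CPM in HTB replicates 1 to 5 and at 345, 459, 376, 454 and 693 CPM in LTB replicates 1 to 5, a log2 difference of -0.39 ± 0.28 (SE; adjusted p = 0.386 by edgeR). Its lowest library, HTB replicate 2, was the highest HTB library for Mt1 and Mt2. The difference of Ndrg1 was -0.20 (adjusted p = 0.475) without that library and -0.20 (adjusted p = 0.670) without LTB replicate 5. Csrp1 stood at -0.14 ± 0.094 (adjusted p = 0.365). Slc40a1, the iron exporter ferroportin, stood at 4.27 CPM in HTB replicate 2, while the other HTB libraries held 1.09 to 1.28 CPM and LTB held 0.311 to 2.46 CPM, with LTB replicate 1 highest there (0.93 ± 0.62, adjusted p = 0.342). Without those 2 libraries together it was higher in HTB (1.09 ± 0.32, adjusted p = 0.0348). That fit was added after seeing the data, it leaves out the highest Slc40a1 library of each group, and 21.6% of 13448 genes were called in it. Without HTB replicate 2 alone the difference of Slc40a1 was 0.31 (adjusted p = 0.691), and without LTB replicate 1 alone it was 1.69 ± 0.53 (adjusted p = 0.0839).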

How the data were processed

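RNA was measured in 10 libraries of subcutaneous MC38 tumour, 5 HTB and 5 LTB, grouped by sample title. RNA came from an RNeasy extraction followed by SMARTer mRNA-seq library preparation, per the labels' protocols; the build was GRCm38 (mm10), per the submitters' processing notes. No source used here names the aligner or counter, or says whether counting used strand. The table the authors deposited gives estimated counts per gene, 86.4% of them whole within 1e-09; they were rounded to whole numbers here. It also gives, per the file headers, the authors' mean expression signal of no stated unit, and a log2 fold change with DESeq2 p-values and q-values. Judged by the counts summed over each group, that fold change is positive where HTB is higher. This held in 99.962% of genes with q under 0.05. 1 line without a gene was left out.

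edgeR 4.0.16 (R 4.3.3) fitted all 13469 genes that passed filterByExpr, with TMM factors (0.975 to 1.03) and group as the only term; the quasi-likelihood test was adjusted by Benjamini-Hochberg, with a threshold of 0.05. Intervals are at the 95% level. CPM use TMM-scaled totals, divided for levels between genes by the length of GENCODE's principal transcript. In simulated counts of this comparison over 13469 genes, 50 changed at each size, 48% (1.5-fold), 74% (2-fold), 96% (4-fold) and 98% (8-fold) were recovered and 4.24% of calls were false. The alternatives were DESeq2 1.42.0, limma 3.58.1 (voom), other size factors, filters, thresholds, the replicate block and leaving out each library; the fit without both HTB replicate 2 and LTB replicate 1 was added after seeing the data. All pairs of replicates differed by more than counting noise. The members and lists were chosen with earlier results of these data known. Genes named are the 7, the listed genes that passed, the 3 of smallest p in each list, the markers, and the 3 nearest in pattern to each member; the remaining family members were named for low reads, after their values were seen.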

Additional observations from a re-analysis of the deposited data

Results flagged for a closer look

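In 5 libraries of a group, a value was picked out where its gap to the nearest other library exceeded 0.71 of the group's range. This happens by chance in about 1 group in 20, and 54 groups of values were examined. HTB replicate 2 stood apart with 3.07 CPM of Mt3 (other HTB libraries at most 0.146), 4.27 CPM of Slc40a1 (others at most 1.28), and marker sums of 11407 CPM for skeletal muscle (others at most 45.8), 5274 CPM for adipocytes (others at most 6.74) and 292 CPM for endothelium (others at most 104). HTB replicate 4 had a neutrophil marker sum of 24.6 CPM (others at most 10.6). LTB replicate 1 had a neutrophil marker sum of 55.6 CPM (others at most 13.8) and the only Mt4 read of its group, 0.0379 CPM. LTB replicate 3 had an adipocyte marker sum of 21.7 CPM (others at most 5.68). None of the 7 zinc genes was picked out in either group.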

How the results depend on the processing

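The number of the 7 genes lower in HTB ran from 0 to 2 with 1 library left out and was 1 without HTB replicate 2 and LTB replicate 1 together; under every other setting it was 0, and none was higher under any. With 1 library left out, the log2 difference ran from -0.73 to -0.31 for Mt1, -0.71 to -0.39 for Mt2, -0.38 to -0.061 for Slc39a10, 0.051 to 0.18 for Slc39a14, -0.035 to 0.040 for Mtf1 and -0.035 to 0.029 for Slc39a1. The last 2 thus changed sign with adjusted p of at least 0.697. Without both libraries Mt1 was -0.76 and Slc39a1 -0.017. The count of other zinc genes lower in HTB ran from 0 to 1 with 1 library left out. It was 0 with no filter on low counts, 0 at an adjusted p under 0.01 and 0 with the replicate block, 2 at an adjusted p under 0.1 and 2 without both libraries (Slc39a4 and Slc39a13). Over all genes, 1274 of 18187 passed with no filter and 971 of 13469 with the block. The share of all genes passing at 0.01 or 0.1 was not counted, so those counts have nothing to be read against. The count of MTF-1 targets higher in HTB was 1 without both libraries (Slc40a1), a fit in which 21.6% of all genes were called against 11.4% with all libraries.

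No pairing by replicate number was seen: deviations of same-numbered libraries correlated at 0.0016 to 0.109, and 0 of 5 numbers had their best partner in their own. The labels name no pairs, and such correlations cannot show whether same-numbered libraries were handled together. With the block, Mt1 stood at -0.54 (adjusted p = 0.194) and Mt2 at -0.58 (adjusted p = 0.158), and 971 genes passed against 1537. DESeq2 called 2449, and leaving out 1 library gave 736 to 3040. No scaling moved the median of all genes by over 0.1. Slc39a4 rests on low counts, which limits its precision. The cause of these changes was not tested.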
